A study of Homo sapiens with 7 samples.

Results

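HOXB13-K13ac peaks were examined in the zinc finger gene clusters of human chromosome 19, taken as 6 fixed windows of hg19. The windows run from 11.7 to 12.7 Mb (window 1), 19.7 to 24.4 Mb (window 2), 36.8 to 38.3 Mb (window 3), 44.3 to 45 Mb (window 4), 52.3 to 54 Mb (window 5) and 56 to 59.1 Mb (window 6). Together they are 12.7 Mb long and cover 21.6% of the span of the chromosome that holds peaks. A peak was a member when its midpoint lay in a window, so, given the windows, position alone chose the members. The windows themselves were chosen with earlier results of these data known. Of the 148462 peaks in the 5 lists that have peaks on this chromosome, 932 were members. Replicate 1 gave 270 of its 41303 peaks, replicate 2 gave 252 of 45216 against input and 61 of 7506 against IgG, and replicate 3 gave 108 of 18232 against input. The other 241 members came from a list of 36205 peaks whose name gives input as the control and matches no library.

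All libraries come from C4-2B, an established line derived from LNCaP prostate cancer cells, grown in serum stripped of steroid hormones with charcoal. Formaldehyde-fixed chromatin was pulled down by an antibody to the form of HOXB13 that carries an acetyl group on lysine 13 (3 libraries) or by IgG, and input chromatin was sequenced as well. No group differs in genotype, treatment or time, so the comparison open to these files is between places in the genome, within each library. The labels do not say whether replicates came from separate cultures, so a p-value over libraries measures only the spread between these 3, which may be technical. The lists of replicates 1 and 3 differ in name by 1 punctuation mark, so which is which rests on spelling, and the control of replicate 1 is not named. The lists hold no read counts, so depth is unknown.

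HOXB13 binds DNA through its homeodomain and helps set the identity of prostate epithelium. KRAB zinc finger genes form the largest family of human transcription factors. Their proteins bind DNA through arrays of C2H2 zinc fingers, and the KRAB domain recruits the corepressor TRIM28 (KAP1), through which many of them silence transposable elements. The family grew by tandem duplication, which is why its genes stand side by side in clusters on chromosome 19. In the RefSeq gene table, 264 of 1451 protein-coding genes on this chromosome have symbols of the form ZNF, ZFP, ZIM or ZSCAN with a number, which is 47.1% of the 561 such genes in the genome. Not every gene with such a symbol carries a KRAB domain. The longest unbroken row holds 27 genes, from ZNF737 to ZNF681, with ZNF43, ZNF208 and ZNF91 among them. Rows of 24 genes run from ZNF565 to ZNF793 and from ZNF627 to ZNF791, and a row of 20 from ZNF283 to ZNF180. That table is on GRCh38.p14 and the peaks are on hg19, so genes were not joined to peaks, and whether a peak lies at a promoter, exon or intron was not analysed here.

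The promoters of these genes were read for letters that HOXB13 is known to favour, to show what sequence the factor would meet there. In the 250 bases before the start site, CAATAAA or its reverse complement TTTATTG was present in 5 of 286 RefSeq promoters of 228 zinc finger genes on chromosome 19 (1.75%). It was present in 24 of 1262 promoters of other genes on the chromosome (1.90%) and in 596 of 22199 promoters of all protein-coding genes (2.68%). The other favoured word, CTCGTAAA, was in 0 of the 286 and in 26 of the 22199 (0.117%), on either strand. The letters G and C made up 60% of the median zinc finger promoter and 64% of the median promoter of other genes on the chromosome. The 5 promoters with a match are shown 5′ to 3′ on the strand of the gene, as stretches of 61 bases with the matching letters in capitals. A match is a description of these letters and was not set against any peak.
ZNF534, GRCh38.p14 chr19:52428898-52428958, plus strand: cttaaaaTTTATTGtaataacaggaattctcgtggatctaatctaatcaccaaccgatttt
ZNF580, GRCh38.p14 chr19:55640773-55640833, plus strand: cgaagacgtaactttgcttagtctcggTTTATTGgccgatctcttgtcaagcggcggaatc
ZNF581, GRCh38.p14 chr19:55643423-55643483, plus strand: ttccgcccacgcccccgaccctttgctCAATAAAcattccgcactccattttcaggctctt
ZNF548, GRCh38.p14 chr19:57389776-57389836, plus strand: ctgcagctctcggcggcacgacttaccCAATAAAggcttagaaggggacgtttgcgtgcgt
ZNF132, GRCh38.p14 chr19:58440280-58440340, minus strand: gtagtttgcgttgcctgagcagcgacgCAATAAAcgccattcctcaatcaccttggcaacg

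The first comparison asked how densely peaks lie in the clusters. Peaks were sparser in the windows than in the rest of chromosome 19 in each of the 3 libraries, and denser there than over the genome. Replicate 1 had 270 peaks in the windows, 21.3 per Mb (exact 95% Poisson interval 18.8 to 24.0), and 1815 in the rest, 39.3 per Mb (37.6 to 41.2). Replicate 2 had 19.8 per Mb (17.5 to 22.4) in the windows and 36.2 (34.4 to 37.9) in the rest. Replicate 3 had 8.50 per Mb (6.98 to 10.3) in the windows and 14.5 (13.4 to 15.6) in the rest. In no library did the interval of the windows meet that of the rest. Over the whole genome the same lists held 13.8, 15.1 and 6.08 peaks per Mb. The rest is what remains of the peak-bearing span of the chromosome outside the windows, 46.1 Mb.

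The density in the windows was 0.540 times that of the rest in replicate 1 (exact 95% interval 0.474 to 0.614), 0.549 times in replicate 2 (0.479 to 0.627) and 0.588 times in replicate 3 (0.475 to 0.722). On the log2 scale the ratio was -0.84 ± 0.07 (SD, n = 3), below 0 in 3 of 3 libraries. The exact two-sided sign-flip permutation test over the 3 libraries gave p = 0.25, the smallest p that 3 libraries allow, so this design cannot reach 0.05. The intervals hold counting error alone, although peaks that lie close together may depend on each other. Against the parts of the chromosome within 1 Mb of a window, the log2 ratio was -0.93. The rest includes most of a stretch of 3.96 Mb with no peak of any list, chr19:24320552-28282539, and without it the log2 ratio was -0.97. Densities are per base of window. How much of each window reads could be placed in was not analysed here.

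The windows differed widely among themselves, and window 6 stood near the rest of the chromosome. Window 2, the longest with 4.7 Mb, held 45, 41 and 25 peaks in replicates 1, 2 and 3. This makes 9.57, 8.72 and 5.32 peaks per Mb, or 0.243 times (0.177 to 0.327), 0.241 times (0.172 to 0.329) and 0.368 times (0.236 to 0.548) the density of the rest. Each value is also below that of the whole genome, although for replicate 3 the interval (3.44 to 7.85) includes the genome's 6.08. Window 6, at the end of the long arm, held 110, 105 and 61 peaks in the same order, 35.5, 33.9 and 19.7 per Mb. Its ratios to the rest were 0.902 (0.737 to 1.09), 0.937 (0.762 to 1.14) and 1.36 (1.03 to 1.77), so replicate 3 was denser there than in the rest. Window 6 makes up 24.4% of the length of the windows and held 40.7%, 41.7% and 56.5% of their peaks.

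In replicates 1 and 2, windows 1, 3, 4 and 5 lay between these. They held 21.4 to 25.0 peaks per Mb in replicate 1 and 18.6 to 24.0 in replicate 2, and their intervals overlapped each other. In replicate 3 windows 1 and 5 were no denser than window 2: 3 peaks in window 1 made 3.00 per Mb and 9 in window 5 made 5.29 per Mb. Window 3 had 10, or 6.67 per Mb. Replicate 3 had 0 in window 4, which allows up to 5.27 peaks per Mb there (upper exact 95% bound). Without window 6 the log2 density ratio over the 3 libraries was -1.35, and without window 2 it was -0.47.

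**Figure D1:**
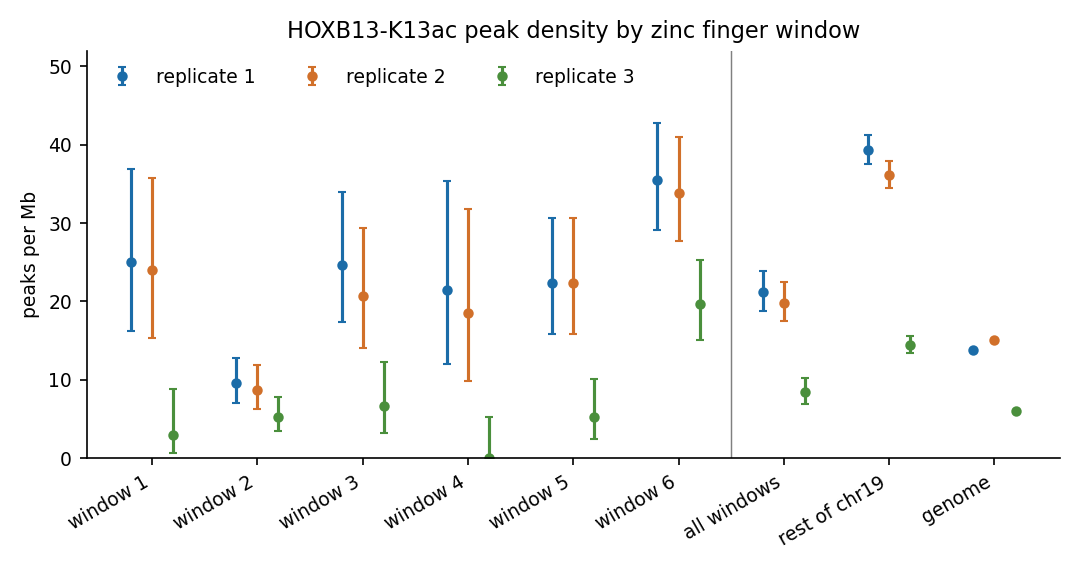
Peaks per Mb in each of the 6 windows, in all windows, in the rest of chromosome 19 and in the genome, for the 3 libraries. Points are single lists and bars are exact 95% Poisson intervals (counting error only). Window 2 is lowest in replicates 1 and 2, at 9.57 and 8.72 per Mb, and window 6 is highest in all 3 libraries.

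The median peak of the windows was narrower than that of the rest in replicates 1 and 2, by less than the interquartile range over peaks, and enrichment was alike within that range. Median widths were 556 bp in the windows and 606 bp in the rest for replicate 1, 721.5 and 752.5 bp for replicate 2, and 243 bp in both for replicate 3. The log2 ratio of medians was -0.06 ± 0.06 (SD, n = 3; exact permutation test, two-sided p = 0.5). It was -0.23 when only peaks whose −log10 q reached 5 were kept and -0.16 without window 6, below 0 in 3 of 3 libraries in both cases (exact permutation test, two-sided p = 0.25, the smallest possible). Peaks over 2 kb numbered 8 of 270 in the windows for replicate 1 (2.96%, against 2.87% in the rest) and 12 of 252 for replicate 2 (4.76%, against 5.64%). Replicate 3 had 0 in either place. The longest peaks of the windows, 4630 bp in replicate 1 and 5604 bp in replicate 2, lay in window 6.

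Fold enrichment is the authors' own ratio for each peak. Windows and rest are compared on it within a list, since the scale of the lists may differ. Its median was 6.25 in the windows and 5.79 in the rest for replicate 1, and 9.10 and 8.35 for replicate 2. For replicate 3 it was 4.67 in both. The log2 ratio of medians was 0.08 ± 0.07 (SD, n = 3; exact permutation test, two-sided p = 0.5). The sign of this ratio turned with other peak filters: it was -0.013 when only peaks whose −log10 q reached 5 were kept and -0.084 for lists cut to equal length. Strong peaks, those with a −log10 q of 5 or more, made up 93.3% of the windows' peaks and 86.8% of the rest in replicate 1. The shares were 84.9% and 80.0% in replicate 2, and 12% and 8.40% in replicate 3.

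**Figure D2:**
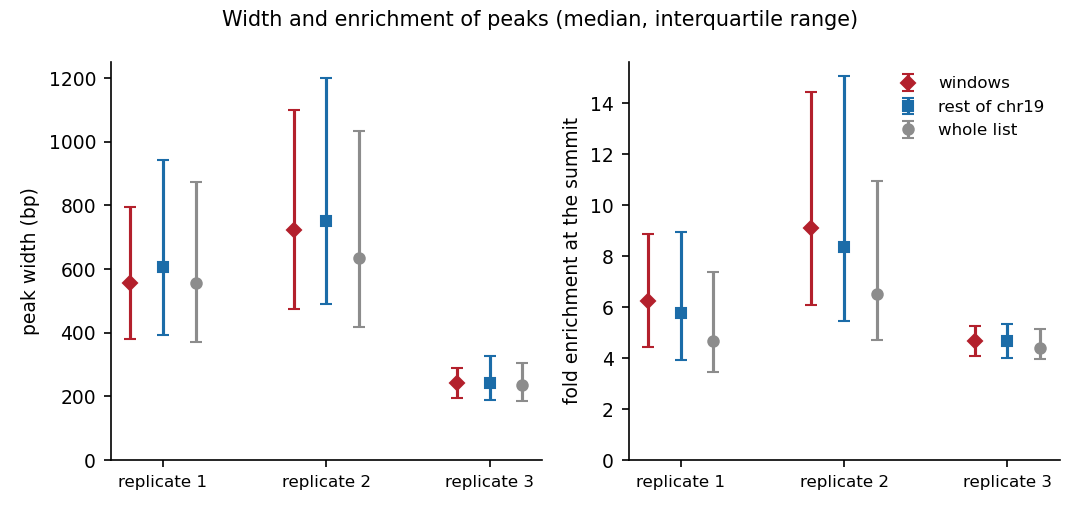
Peak width in bp (left) and fold enrichment at the summit (right) for the windows, the rest of chromosome 19 and the whole list of each library. Points are medians and bars are interquartile ranges over peaks. Windows and rest overlap in each library, and replicate 3 has the narrowest peaks, with a median of 243 bp in both.

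To ask whether the clusters gave the same peaks in different libraries, each peak was looked up in the other 2 libraries, with at least 1 bp in common. Of the windows' peaks of replicate 1, 235 of 270 (87.0%, exact 95% binomial interval 82.4 to 90.8) were found in another library, against 83.6% (81.9 to 85.3) in the rest and 77.3% of the whole list. For replicate 2 these shares were 85.3% (80.3 to 89.4), 81.0% (79.0 to 82.9) and 63.2%. For replicate 3 they were 52.8% (42.9 to 62.5), 46.6% (42.8 to 50.5) and 30.8%. The intervals of windows and rest overlapped in each library. The mean difference was 4.62 ± 1.4 percentage points (SD, n = 3), higher in the windows in 3 of 3 libraries (exact permutation test, two-sided p = 0.25, the smallest possible). The direction rested on window 6 and on the lists' lengths: the mean was -0.54 without window 6 and -0.45 with lists cut to equal length. Without window 6 the difference was above 0 in replicates 1 and 2 and -8.33 in replicate 3. The mean difference was 0.86 when only peaks whose −log10 q reached 5 were kept, 8.30 without window 2 and 8.50 with 0.5 of both widths in common.

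Among peaks of like strength the difference in sharing had either sign. The chromosome 19 peaks of each list were divided by −log10 q into 3 classes of like size. In replicate 1 the weakest class was shared at 58.1% in the windows and 61.8% in the rest, the middle class at 93.7% and 91.4%, and the strongest at 97.9% and 99.2%. For replicate 2 the weakest class gave 54.2% and 51.1%, and all 82 of the strongest peaks in the windows were shared. In replicate 3 the strongest class was shared at 60.0% in the windows (24 of 40) and 66.7% in the rest, and the weakest at 45.5% (15 of 33) and 31.6%. The weakest class made up 23% of the windows' peaks in replicate 1, 28.6% in replicate 2 and 30.6% in replicate 3, and 34.9%, 34.1% and 33.7% of the rest.

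**Figure D3:**
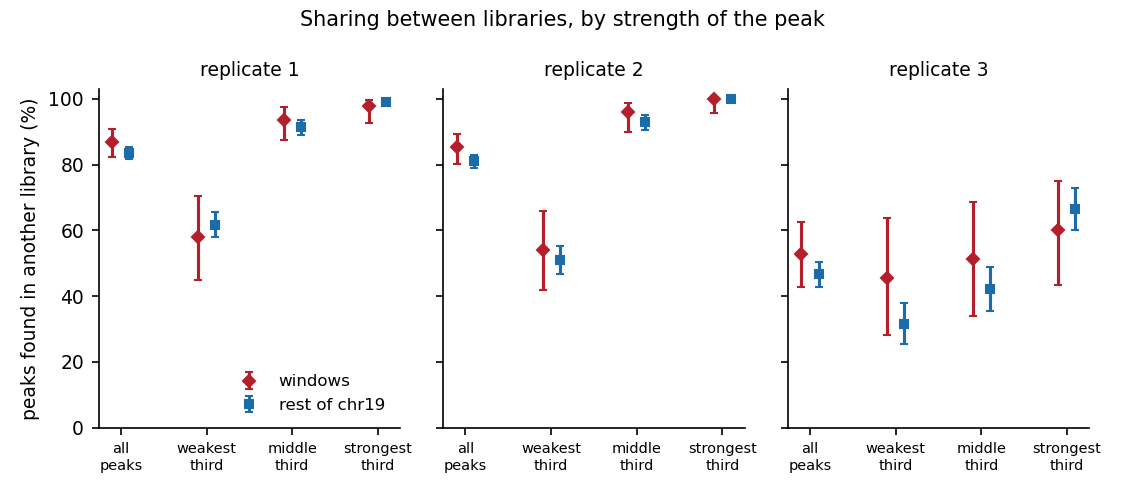
Percent of peaks of each library found in at least 1 other library, for all peaks on chromosome 19 and for 3 classes of them by −log10 q, in the windows and in the rest. Bars are exact 95% binomial intervals. The intervals of windows and rest overlap in all 3 libraries at each strength.

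Merging the 3 lists gave 337 regions in the windows, of which 214 (63.5%, 58.1 to 68.7) were replicated sites, held by at least 2 libraries. In the rest, 1273 of 2243 regions were replicated (56.8%, 54.7 to 58.8), and over the genome 41.2%. All 3 libraries held 49 of the 337 regions (14.5%, 11.0 to 18.8), against 11.5% in the rest and 6.99% over the genome. This share was 24.1% (17.2 to 32.1) in window 6, and from 0% in window 4 to 12.8% in window 3 among the other windows. By far the most frequent kind of replicated site was that of replicates 1 and 2 alone, with 164 of 214. The pair of replicates 1 and 3 gave 1 more site, and the pair of replicates 2 and 3 gave 0. Replicated sites numbered 16.9 per Mb in the windows (14.7 to 19.3) and 27.6 per Mb in the rest (26.1 to 29.2), a ratio of 0.611 (0.526 to 0.706). For regions of 1 library alone the ratio was 0.428 (0.293 to 0.609) for replicate 1, 0.424 (0.293 to 0.597) for replicate 2 and 0.520 (0.380 to 0.699) for replicate 3. Their intervals overlap that of the replicated sites.

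Replication also varied by window. Window 1 had 22 replicated sites of 28 regions, 1 of them in all 3 libraries. Window 2 had 34 of 70, with 5 in all 3, and 19 of its regions were held by replicate 3 alone (27.1%, compared with 15.9% in the rest of the chromosome). Of the 25 replicate 3 peaks in window 2, 6 were found in another library. Window 3 had 28 sites of 39 regions and window 5 had 32 of 46, each with 5 in all 3 libraries. Window 4 had 11 of 17 and none in all 3, since replicate 3 has no peak there. Window 6 had 87 of 137, and 33 of the 49 sites that all 3 libraries hold lay there. They made up 37.9% of its replicated sites, compared with 20.3% in the rest.

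Against IgG, the control precipitation, replicate 2 had 61 peaks in the windows, 4.80 per Mb (3.67 to 6.17), and 8.71 per Mb (7.88 to 9.61) in the rest. The ratio was 0.551 (0.414 to 0.723). This list comes from the same library as the replicate 2 list against input. All 61 shared sequence with a peak of replicate 1 and with a replicate 2 peak against input, and 21 with a replicate 3 peak (34.4%, 22.7 to 47.7). In the rest all 402 did so for replicates 1 and 2, and 30.6% (26.1 to 35.4) for replicate 3. Window 6 held 35 of the 61 and window 4 held 0. Of the 214 replicated sites in the windows, 56 had a peak in this list (26.2%, 20.4 to 32.6), close to the 26.7% (24.3 to 29.2) of the rest, and 23.2% over the genome. Of the 56, 15 met a peak of this list with a q of 0.05 or less, and in the rest 91 of 340 did. Over the list the median −log10 q was 1.01 in the windows and 0.686 in the rest, where a q of 0.05 is 1.30.

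Replicated sites lay farther apart in the windows than in the rest of the chromosome. The measure that follows was chosen after the values were seen. A replicated site was counted as isolated when no other lay within 10 kb of its edges. In the windows 144 of 214 sites were isolated (67.3%, 60.6 to 73.5), and in the rest of the chromosome 345 of 1273 (27.1%, 24.7 to 29.6). Between 1 site and the next the median distance was 30.4 kb in the windows (interquartile range 16.7 to 60.0) and 12.1 kb in the rest (2.23 to 35.9). Runs of 5 or more sites within 10 kb of each other held 6.54% of the sites in the windows and 20.1% in the rest. With a limit of 5 kb the isolated shares were 73.4% and 36.5%, and with 20 kb they were 51.4% and 15.9%.

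Because density bears on this measure, the windows were set beside whole chromosomes. In the other 21 autosomes 31.6% to 49.0% of replicated sites were isolated, with a median of 41.6%, at densities from 5.39 to 21.2 sites per Mb. None of the 21 reached the share of the windows, although only 2 of them were as dense: chromosome 17 with 36.1% and chromosome 22 with 33.3%. The parts of chromosome 19 within 1 Mb of a window had 28.3% (23.3 to 33.6).

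The pattern was strong in replicates 1 and 2 and weak in replicate 3. Within replicate 1, 53.3% of the windows' peaks (47.2 to 59.4) and 15.3% of the rest (13.7 to 17.1) had no other peak of the list within 10 kb. Within replicate 2 these were 58.3% (52.0 to 64.5) and 18.6% (16.7 to 20.5). Within replicate 3, the sparsest list, they were 67.6% (57.9 to 76.3) and 60.1% (56.3 to 63.9), with overlapping intervals, and 18 of the 21 other autosomes had a share at or above that of the windows. For replicates 1 and 2 none did. The mean difference was 28.4 ± 18.2 percentage points (SD, n = 3; exact permutation test, two-sided p = 0.25, the smallest possible) and was 38.9 without replicate 3.

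**Figure D4:**
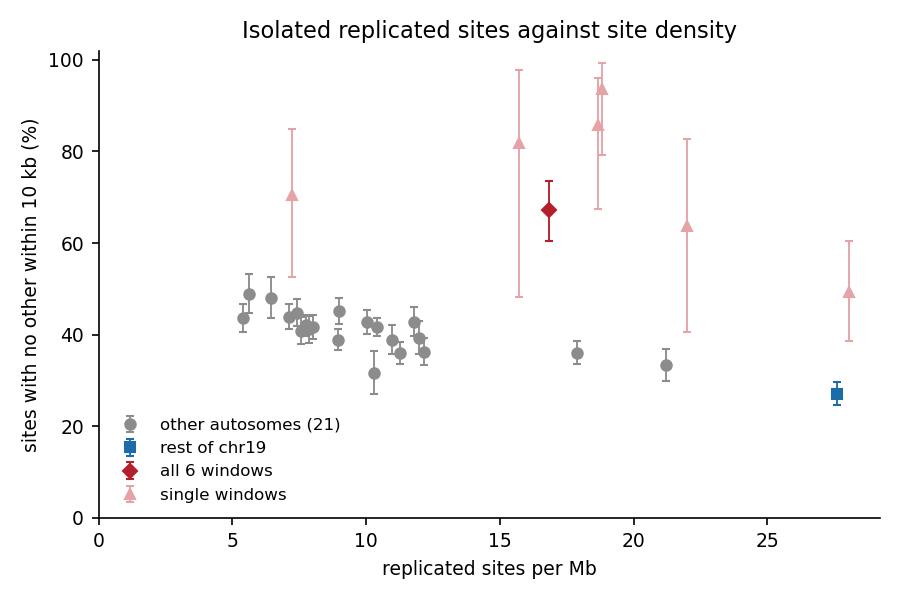
Percent of replicated sites with no other site within 10 kb, against the number of replicated sites per Mb, for the 6 windows, all windows together, the rest of chromosome 19 and the other 21 autosomes. Bars are exact 95% binomial intervals. All windows together (67.3%) lie above each of the 21 autosomes (31.6% to 49.0%), and window 6 at 49.4% is the lowest of the windows.

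Isolated sites were most frequent in window 5, with 30 of 32, followed by window 3 with 24 of 28 and window 4 with 9 of 11. Windows 2 and 1 had 24 of 34 and 14 of 22. Window 6 had 43 of 87 (49.4%, 38.5 to 60.4). Counted in bins of 100 kb, replicated sites were spread most evenly in windows 3 and 1, followed by windows 4 and 5. In bins of 100 kb, window 3 had a site in each of its 15 bins and at most 4 in any, and the variance of its counts was 0.449 times their mean. For window 1 that ratio was 0.485, with 1 empty bin of 10. For windows 4 and 5 the ratio was 0.818 and 0.988, and for windows 2 and 6 it was 2.39 and 2.45. These ratios rest on few bins. The value over all windows, given below, also holds the differences in density between windows. At shorter distances window 1 was less even, with 8 of its 22 sites in 4 runs of 2. Peaks of the replicate 3 list were absent from 7 of the 10 bins of window 1 and from 9 of the 15 of window 3. The ratio was 1.90 over the 126 full bins of the windows and 3.39 over those of the rest. Counts of replicated sites in these bins were thus more uneven in the rest. For peaks of replicates 1 and 2 the ratio was 2.02 and 2.28 in the windows, and 4.79 and 4.36 in the rest. For replicate 3 the order was the other way, with 2.85 in the windows and 2.13 in the rest. The last bin of window 6, where the peaks of the chromosome end, is not full and was left out of all bin values. It holds the run of 8 replicated sites named below, so the windows' values leave out a crowded part. Bins with no replicated site made up 34.9% of the windows (26.6 to 43.9) and 31.2% of the rest (27 to 35.7), or 25.1% of the rest (21 to 29.5) without the 38 bins of its stretch of 3.96 Mb with no peak. Among the full bins counted, those with 5 or more sites made up 4.76% in the windows and 24.1% in the rest, or 26.2% without the 38 bins. The share of the windows does not count the crowded last bin of window 6.

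Long stretches without a peak were a feature of window 2. There 29 of its 47 bins had no replicated site. The 3 longest stretches of the windows that lack a peak in each of the 3 libraries all lay in it. They were chr19:22034871-22488506 (454 kb), chr19:22488770-22908590 (420 kb) and chr19:20306037-20714169 (408 kb) on hg19. Between the first and the second lies 1 peak, of replicate 2. Neither the IgG list of replicate 2 nor the list of no known library had a peak in the 3 stretches. Neighbouring replicated sites in this window were up to 1167 kb apart.

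**Figure D5:**
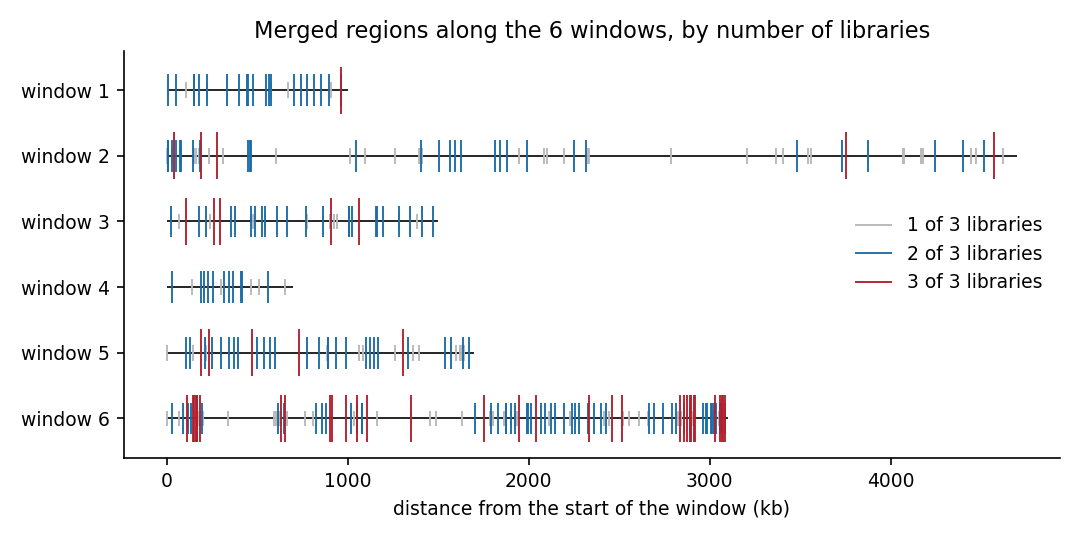
Merged regions along each window, as distance from the start of the window in kb, coloured by the number of libraries that hold them, with longer marks for more libraries. Sites held by 2 or more libraries are spread more evenly over 100 kb bins in windows 1 and 3 than over all windows. They lie thinly in window 2 and crowd near both ends of window 6. Most of the sites found in 3 libraries lie in window 6 (33 of 49).

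Of the 29 runs of 2 or more replicated sites in the windows, 16 lay in window 6, with 44 of the 70 sites. The runs of the other windows held 2 sites each. The run with the most sites, chr19:59054754-59087743, held 8 replicated sites in 33.0 kb, 4 of them in all 3 libraries, and the 3 lists had 10, 9 and 5 peaks in it. It ends 12.3 kb before the end of the window and holds the last peak of the chromosome. The next, chr19:56135668-56167729, began 136 kb into the window and held 6 sites in 32.1 kb. Of these, 5 were in all 3 libraries, and 5 peaks of replicate 2 against IgG fell in it. The third, chr19:58891503-58899478, held 3 sites in 7.98 kb, 2 of them in all 3 libraries. It tied with 1 other run of 3 sites in window 6 and is named because it comes first along the chromosome.

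To name single sites, those held by 3 libraries were put in order of their smallest fold enrichment, highest first. This sets values of different lists side by side, so the order also reflects the scale of each list. The first, chr19:37708631-37709842 in window 3, had fold enrichments of 14.0 in replicate 1, 11.6 in replicate 2 and 9.65 in replicate 3. It had no peak against IgG. The second, chr19:57048971-57050122 in window 6, had 8.37, 14.4 and 9.46 in the same order. The third, chr19:19976529-19978035 in window 2, had 13.9, 10.6 and 8.0. At these sites the replicate 3 peak was 194 to 221 bp wide, inside merged regions of 1152 to 1507 bp.

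The fourth site, chr19:58896650-58899478 in window 6, stood out in replicate 2. Its fold enrichments were 14.0, 74.1 and 7.54, and 74.1 was the highest value of any replicate 2 peak in the windows. It also had the highest enrichment of the windows over IgG, 9.13, with a −log10 q of 10.7. Among the 12 top sites, 7 lay in window 6, 2 in window 2, 1 each in windows 1, 3 and 5, and none in window 4. They were drawn from the 49 sites of all 3 libraries, of which 33 lay in window 6 and 0 in window 4. Over the 12, fold enrichment lay between 6.56 and 14.4 in replicate 1. It lay between 10.6 and 74.1 in replicate 2, and between 6.0 and 9.65 in replicate 3. Replicate 3 gave the lowest value at 10 of the 12. A peak against IgG was present at 6 of the 12, compared with 26.2% of all replicated sites in the windows and 35.6% of those in window 6. The 12 were picked for high fold enrichment, so these shares are not of like sites. They also count peaks of any q. Of the peaks against IgG at the 12 sites, only that of the fourth site reached a q of 0.05, a −log10 q of 1.30. At the others the −log10 q was 1.01 or less. With summits required to lie within 100 bp, 7 of the 12 remained in all 3 libraries, and with 0.5 of both widths in common none did.

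Each window also had a site that led in replicates 1 and 2, ranked by the lower of these 2 fold enrichments. In window 1 it was chr19:11708196-11709353, with 18.2 in replicate 1 and 22.4 in replicate 2. In window 2 it was chr19:23577576-23578364, with 13.4 and 18.9. In window 3 it was chr19:36979446-36981221, with 18.5 and 26.8. In window 4 it was chr19:44668624-44669845, with 8.04 and 8.52, the weakest of the 6. None of these 4 sites had a peak of replicate 3. In window 5 it was chr19:52531049-52532289, with 14.4 and 22.5, also ninth among the 12 sites of all 3 libraries, where replicate 3 had 6.64. In window 6 it was chr19:56158829-56160737, with 19.9 and 35.1, and replicate 3 had 4.92.

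The 3 widest replicated sites were all in window 6 and in all 3 libraries. The widest, chr19:56150579-56156182, spanned 5604 bp, with a replicate 1 peak of 4630 bp, a replicate 2 peak of 5604 bp and a replicate 3 peak of 250 bp. Its fold enrichments were 18.6, 29.1 and 4.95. It lies in the run of 6 sites, next to the leading site of the window. The others were chr19:56651233-56655105 with 3873 bp and chr19:56630505-56633558 with 3054 bp. The widest replicated site in the rest of the chromosome spanned 11019 bp, and median widths of replicated sites were 843.5 bp in the windows and 1031 bp in the rest.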

How the data were processed

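Per the labels, 3 HOXB13-K13ac, 2 IgG and 2 input libraries of C4-2B cells were sequenced. The deposited lists give, for each peak, a fold enrichment (a ratio, deposited by the authors) and a −log10 p and −log10 q, as the authors deposited them. The submitters' processing notes name the tools BWA, Bowtie2, MACS2 and CASAVA 1.4 and the builds hg19 and GRCh37. For thresholds, filters and pooling the sources used here say nothing. Lists were tied to libraries by the spelling of the labels. A list of replicate 3 against IgG with no peak on chromosome 19 was not used.

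Peaks were compared in Python 3.11.15 with NumPy 2.4.6, pandas 2.3.3 and SciPy 1.17.1. The code was tested on simulated data, and bedtools 2.31.1 gave the same number of overlaps for each of 20 pairs of lists. Windows and rest were compared within a library, and libraries by the exact sign-flip permutation test. Sites were named by fixed rules: the 12 sites of all 3 libraries with the highest lowest fold enrichment, the leading site of each window in replicates 1 and 2, the 3 widest sites, the 3 runs with the most sites and the 3 longest stretches without a peak. The windows, lists and rules were chosen with earlier results of these data known. Promoters came from RefSeq (GRCh38.p14), which matched 228 of 264 genes. Alternatives changed membership, strength, list length, sharing rule, libraries, windows and reference region.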

Additional observations from a re-analysis of the deposited data

Results flagged for a closer look

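One list has a name that fits no single library. It was kept out of the main comparisons of libraries, so its 241 peaks in the windows are signal that those main comparisons do not use. Its name gives input as the control, and no peak list of a control library was set beside it. Their density was 19 per Mb (16.7 to 21.5) in the windows and 34.9 (33.2 to 36.7) in the rest, a ratio of 0.543 (0.473 to 0.623). The peaks had a median fold enrichment of 7.66, and their median width was 624 bp. Of the 241, 227 (94.2%) shared sequence with a replicate 2 peak, 216 (89.6%) with a replicate 1 peak and 52 (21.6%) with a replicate 3 peak. In the rest the shares were 92.6%, 85.0% and 19.8%. The list met 194 of the 214 replicated sites of the windows (90.7%), compared with 90.6% in the rest, and 7 of 11 in window 4. In 1 of the alternatives the list took the place of replicate 3, which gave a log2 density ratio of -0.88 and 231 replicated sites in the windows. The source of the list was not tested.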

How the results depend on the processing

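The density ratio stayed below 0 on the log2 scale under all 16 alternatives, from -1.35 without window 6 to -0.47 without window 2. The difference in isolated peaks, an addition made after seeing the data, stayed above 0 under its 17 alternatives. The width ratio reversed to 0.0053 with the IgG list of replicate 2, and the fold enrichment ratio to -0.013 at a −log10 q of at least 5 and to -0.084 with lists of equal length. The mean difference in sharing reversed to -0.45 percentage points with lists of equal length and to -0.54 without window 6. In the first case replicates 1 and 2 were below 0 and replicate 3 above, and in the second only replicate 3 was below 0. The mean difference in sharing was 0.86 to 8.50 under the alternatives that kept its sign. Single libraries did not always follow the mean. With summits within 100 bp the mean was 7.52 and replicate 3 was at -1.91. With 0.5 of both widths in common replicate 3 was at 0.11, and with the IgG list replicate 2 was at 0. The width ratio was -0.23 at a −log10 q of at least 5 and -0.16 without window 6. The cause was not tested for these. Leaving out the longest stretch with no peak, an alternative chosen after seeing the data, lowered the share of empty bins in the rest from 31.2% to 25.1%. The 214 replicated sites became 132 with lists of equal length, 127 without window 6 and 79 with the IgG list of replicate 2, each of which leaves fewer peaks. Leaving out 1 replicate gave 49 to 213 sites, with 49 without replicate 1, 49 without replicate 2 and 213 without replicate 3. No alternative could pass the threshold of 0.05, since 3 libraries allow no p below 0.25. No paired analysis was possible because the replicate numbers pair the HOXB13-K13ac libraries with IgG and input libraries, and no peak list of those was used here. The comparison of windows with rest is within each library and does not use that pairing. Read depth is unknown, and replicate 3, with few strong peaks, limits each statement on sites of all 3 libraries.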
